A study of Mus musculus with 6 samples.

Results

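The genes described here are 10 transcription factor genes that are known for driving the epithelial-mesenchymal transition (EMT): Foxc1, Foxc2, Prrx1, Twist1, Twist2, Tcf4, Snai1, Snai2, Zeb1 and Zeb2. They are 10 of 18193 genes that the array annotation ties to probe sets with a single gene symbol, and 29 probe sets carry one of their symbols alone. Each gene was represented by its probe set with the highest mean log2(signal + 50) over all 6 arrays, a choice that does not use the groups. Messenger RNA came from 3 cultures of E0771-HML2 cells and 3 cultures of unselected parental E0771 cells. E0771 is a mouse mammary tumour line of strain C57BL/6. HML2 is the second-generation population obtained by growing E0771 tumours in the mammary gland of mice of that strain, recovering metastatic cells from the lung and repeating the selection. Both groups were grown in DMEM with 10% serum and antibiotics for 3 days without further treatment, and each culture had its own Affymetrix Mouse Genome 430 2.0 array. HML2 is thus a single selected line compared in culture, and the labels call the cultures biological replicates but do not tie them to separate animals. P-values therefore measure the spread between these cultures.

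In the EMT, epithelial cells give up the junctions that hold them together and take on the shape, matrix and motility of mesenchymal cells. Snail and Zeb proteins are zinc finger factors that bind E-box sequences and repress epithelial genes such as the E-cadherin gene Cdh1. Twist proteins are basic helix-loop-helix factors that pair with E proteins, of which Tcf4 is one, while Prrx1 is a homeobox factor and Foxc1 and Foxc2 are forkhead factors. Tcf4 here is the E protein gene, not the Wnt effector gene Tcf7l2 that is often called by the same name.

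Signals are MAS5 values on a linear scale that the authors had scaled to a common trimmed mean, and all 6 arrays had 39.7% to 41.6% of probe sets at a signal of at least 100. Bacterial control probe sets, which should find no target in mouse RNA, read 1.97 to 36.2. The ratio of 3' to 5' control signals of beta-actin was 1.36 to 1.39 on HML2 arrays and 1.41 to 1.53 on parental arrays (exact two-sided permutation p = 0.1, the smallest that 3 against 3 arrays allow). That of Gapdh was 0.770 to 0.816 on HML2 arrays and 0.799 to 0.803 on parental arrays (exact permutation p = 0.7). The part of RNA quality in the results below was not tested. The defining epithelial markers Cdh1, Krt19 and Krt14 had mean signals in both groups no higher than the brightest bacterial control, which is called within the control range here, so the labelled mammary tumour identity rested here on Krt8, on weak Epcam and on Esr1, the 3 of 8 mammary epithelial markers with a mean signal of at least 100. Fibroblast markers Dcn, Lum, Thy1, Fap and Pi16 lay within the control range too. The summed signal of the 8 fibroblast markers was 831 to 1202 on HML2 arrays and 1652 to 3012 on parental arrays. Of that list only Pdgfra reached 100, with 873 ± 116 in HML2 and 1954 ± 519 in parental cells (SD, n = 3 each). Of 8 leukocyte markers 4 lay within the control range, Ptprc among them, and the list summed to 259 to 491 on HML2 arrays and 419 to 471 on parental arrays, with Lyz2 at 78.9 ± 8.29 in HML2 and 192 ± 28.9 in parental cells. Of 8 endothelial markers 4 lay within it, Pecam1 among them, and the list summed to 313 to 417 on HML2 arrays and 166 to 241 on parental arrays, with Icam2 at 177 ± 72.2 in HML2 and 6.39 ± 1.5 in parental cells. Of 8 lung epithelial markers 3 lay within it, Scgb1a1 among them, and the list summed to 1041 to 2187 on HML2 arrays and 1218 to 1892 on parental arrays, with Hopx at 1396 ± 543 in HML2 and 1362 ± 407 in parental cells. The mammary epithelial list summed to 4019 to 5274 on HML2 arrays and 1613 to 1793 on parental arrays. Most of that sum was Krt8, at 4175 ± 650 in HML2 and 1095 ± 60.3 in parental cells. Epcam went the other way, at 83.5 ± 15.0 in HML2 and 133 ± 24.5 in parental cells. In the test described below, 1 marker of the list, Krt8, was called higher and 1, Esr1, lower, so the sum does not speak for the whole list. Epcam was not called (limma adjusted p = 0.12). The part of other cell types in the results was not tested.

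Of the 10 factors, 8 had a mean signal of at least 100 over the 6 arrays and were tested, each with a mean above 100 in both groups. Foxc1, Prrx1 and Twist2 were lower in HML2 cells and none was higher (limma with Benjamini-Hochberg adjustment over 9361 genes, called at an adjusted p below 0.05). Those 3 make 37.5% of the 8 factors tested, beside 14.9% of all genes tested called lower and 12.3% called higher. The same 3 factors had all HML2 arrays below all parental arrays, a pattern found in 23.8% of all genes, whereas the other 5 had overlapping groups. The median log2 difference, HML2 minus parental, was -0.44 over the 8 factors and -0.02 over all genes tested. The best known repressors of Cdh1, the Snail and Zeb genes, were not among them, although Snai2 and Zeb2 were called lower when arrays were weighted.

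The promoter sequences of the 3 lowered factors are shown with those of Twist1, the paralog of Twist2 that was not called, and of Snai1, because Snail and Zeb proteins are known to bind the letters CACCTG or, on the other strand, CAGGTG. Each line gives the 250 bases before a transcript start in RefSeq, assembly GRCm38.p6, with matches to those letters in capitals.
Foxc1, chr13:31806396-31806645, plus strand: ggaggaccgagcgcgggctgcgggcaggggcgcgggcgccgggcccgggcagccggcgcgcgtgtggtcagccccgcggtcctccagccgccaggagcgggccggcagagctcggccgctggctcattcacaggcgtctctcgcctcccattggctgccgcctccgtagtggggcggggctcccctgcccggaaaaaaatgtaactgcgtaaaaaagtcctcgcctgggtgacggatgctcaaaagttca
Prrx1, chr1:163313651-163313900, minus strand: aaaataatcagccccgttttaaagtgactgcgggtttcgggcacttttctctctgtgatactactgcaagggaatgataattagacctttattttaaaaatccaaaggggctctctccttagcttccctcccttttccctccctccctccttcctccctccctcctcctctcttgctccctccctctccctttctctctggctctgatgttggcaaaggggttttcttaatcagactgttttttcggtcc
Twist2, chr1:91801211-91801460, plus strand: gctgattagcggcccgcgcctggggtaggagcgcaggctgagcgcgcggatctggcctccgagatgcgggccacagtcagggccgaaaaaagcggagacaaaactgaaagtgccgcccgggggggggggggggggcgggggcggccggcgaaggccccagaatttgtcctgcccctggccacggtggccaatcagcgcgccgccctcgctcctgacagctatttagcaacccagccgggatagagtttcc
Twist1, chr12:33957421-33957670, plus strand: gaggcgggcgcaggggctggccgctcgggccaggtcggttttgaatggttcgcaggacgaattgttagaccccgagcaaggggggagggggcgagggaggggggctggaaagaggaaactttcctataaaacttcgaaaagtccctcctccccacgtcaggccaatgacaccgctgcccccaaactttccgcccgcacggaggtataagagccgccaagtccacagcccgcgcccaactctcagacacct
Snai1, chr2:167537945-167538194, plus strand: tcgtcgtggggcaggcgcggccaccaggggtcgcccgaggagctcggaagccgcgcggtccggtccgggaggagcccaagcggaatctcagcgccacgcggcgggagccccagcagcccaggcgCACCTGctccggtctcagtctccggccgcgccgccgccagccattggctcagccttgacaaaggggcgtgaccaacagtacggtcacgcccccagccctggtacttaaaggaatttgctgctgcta
The window of Snai1 held 1 match, starting 126 bases before the transcript start, and those of Foxc1, Prrx1, Twist2 and Twist1 held 0. None of the 4 windows of Zeb2 held one. Of 32851 promoter windows of this length in the table, 17.2% held at least 1 match. The TATA letters TATAAA, searched on both strands as TATAAA or TTTATA, occurred once in the Twist1 window, in none of the other printed windows and in 12.4% of all windows. The share of G and C was 70.8% for Foxc1, 68.8% for Twist2, 62.4% for Twist1, 70.0% for Snai1 and 47.6% for Prrx1, beside a median of 52.4% over all windows. The 3 promoters of the lowered factors thus had neither motif and differed in base composition. The Prrx1 window precedes a transcript start that lies within the span of the gene. A match is a description of letters and not of binding.

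Foxc1 showed the largest decrease of the 10 factors. This forkhead gene is known from human breast cancer as a marker of the basal-like type. Its signals were 128, 214 and 197 on the HML2 arrays and 625, 548 and 609 on the parental arrays. The means were 179 ± 45.8 in HML2 and 594 ± 40.4 in parental cells (SD, n = 3 each), a ratio of 0.302. The log2 difference was -1.51 ± 0.19 (SE; limma adjusted p = 9.2e-04, 95% interval -1.93 to -1.08), and it stayed between -1.62 and -1.33 when any one array was left out. A second Foxc1 probe set read 126, 128 and 132 in HML2 cells, against 615, 590.04 and 614 in parental cells, a log2 difference of -1.88 ± 0.14 (adjusted p = 7.2e-05 in a fit of all 16412 probe sets). Both probe sets kept the groups far apart, and all HML2 values were still above the range of the bacterial controls. In bulk RNA, fewer cells with the transcript and less transcript per cell cannot be told apart. Foxc2, its paralog, read 1.60, 2.50 and 6.17 in HML2 and 2.84, 2.92 and 4.22 in parental cells, at the level of the bacterial controls in both groups.

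**Figure D1:**
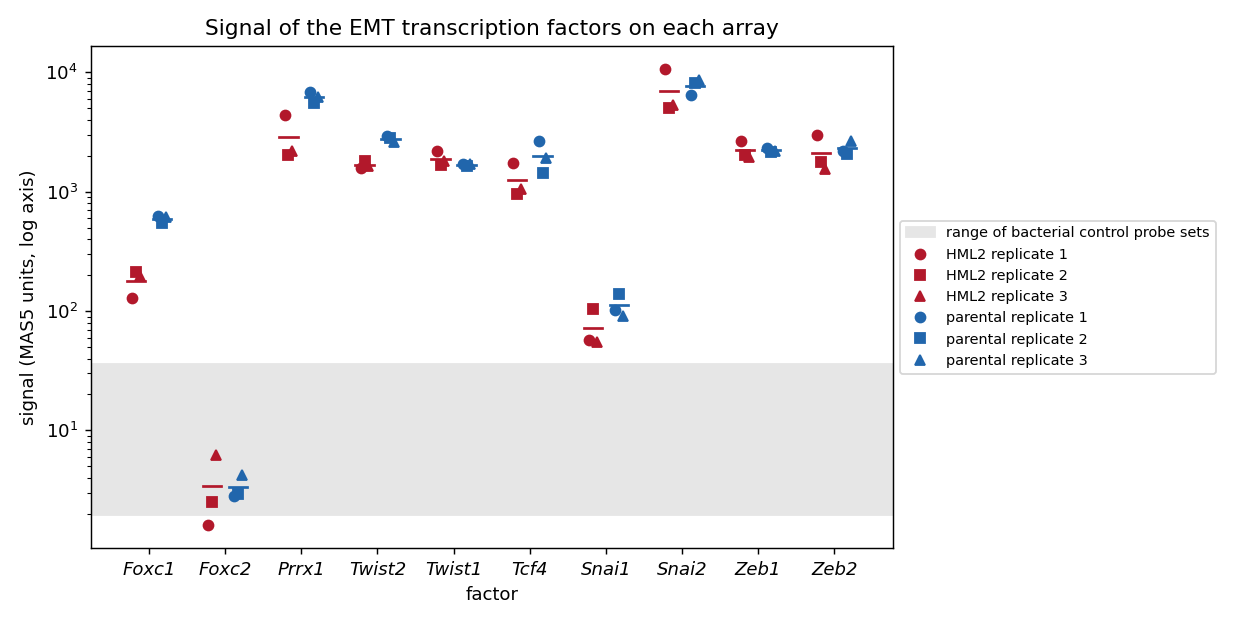
Signal of each factor's brightest probe set on the 3 HML2 arrays (red) and the 3 parental arrays (blue), in MAS5 units on a log axis; horizontal bars are group means, marker shapes are replicate numbers, and the grey band is the range of the bacterial control probe sets. The groups are separate for Foxc1, Prrx1 and Twist2, HML2 replicate 1 lies above the other HML2 arrays for Prrx1, Twist1, Tcf4, Snai2, Zeb1 and Zeb2, and heights of different genes cannot be compared because probes differ.

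Prrx1 encodes a homeobox factor of embryonic mesenchyme. Its brightest probe set read 4391, 2030.1 and 2215 on the HML2 arrays and 6809, 5534 and 6231 on the parental arrays. All HML2 values lay below the parental ones, and HML2 replicate 1 lay between the other HML2 arrays and the parental arrays. The means were 2879 ± 1313 in HML2 and 6192 ± 638 in parental cells (SD, n = 3 each), with a log2 difference of -1.17 ± 0.26 (SE; limma adjusted p = 0.012, 95% interval -1.77 to -0.58). The difference was -1.52 without HML2 replicate 1. It was -1.17 and no longer called without parental replicate 3 (adjusted p = 0.051).

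Prrx1 had 6 probe sets, of which 5 reached a mean signal of 100, and they differed in size of change. All 5 had negative differences, and 2 were called in the fit of all probe sets, where 14.1% of probe sets were called lower. Besides the brightest, a dimmer probe set was called, with 183, 119 and 123 in HML2 and 248, 234 and 229 in parental cells (log2 difference -0.60 ± 0.18, adjusted p = 0.041). Next in brightness were probe sets with differences of -0.84 ± 0.31 (adjusted p = 0.080) and -0.82 ± 0.27 (adjusted p = 0.052). The last read 527, 275 and 329 in HML2 and 462, 428 and 421 in parental cells (log2 difference -0.23 ± 0.22, adjusted p = 0.46). Its groups overlapped through HML2 replicate 1. Affymetrix marks both this probe set and the one with a difference of -0.82 as shared by alternative transcripts of a gene. Averaged over the 5 probe sets, the difference of Prrx1 was -0.73, still called at an adjusted p of 0.04995. The size of the decrease in Prrx1 thus depended on the probe set, with log2 differences from -1.17 to -0.23.

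Twist2 and Twist1 are close relatives that encode basic helix-loop-helix proteins, and each had a single probe set. Twist2 read 1593, 1804 and 1659 on the HML2 arrays and 2946, 2835 and 2599 on the parental arrays. The means were 1685 ± 108 in HML2 and 2794 ± 177 in parental cells (SD, n = 3 each), a ratio of 0.603. The log2 difference was -0.71 ± 0.12 (SE; limma adjusted p = 0.0034, 95% interval -0.98 to -0.44), and leaving out any one array moved it only between -0.76 and -0.67. Twist2 was the steadiest of the called factors.

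Twist1 read 2186, 1677 and 1823 in HML2 cells, against 1718, 1634 and 1724 in parental cells. The groups overlapped, with HML2 replicate 1 highest. The log2 difference was 0.15 ± 0.13 (limma adjusted p = 0.44), and its 95% interval, -0.15 to 0.46, did not reach the change of Twist2. Taken per array, Twist2 minus Twist1 on the log2 scale was lower by 0.86 in HML2 cells, with values of -0.44, 0.10 and -0.13 in HML2 and 0.76, 0.78 and 0.58 in parental cells. These values did not overlap, and the exact permutation p of 0.1 (0.2 adjusted over 4 pairs of paralogs) is the smallest that this permutation test can give with 3 against 3 arrays.

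Tcf4, the E protein gene and a partner of Twist proteins, read 1738, 956 and 1049 on the HML2 arrays and 2655, 1431 and 1901 on the parental arrays. Replicate 1 was the highest array of both groups, and the groups overlapped. The log2 difference was -0.66 ± 0.27 (SE; limma adjusted p = 0.11), with a 95% interval of -1.28 to -0.05 before adjustment over genes. Between arrays of the same replicate number the difference was -0.60, -0.56 and -0.83 for numbers 1, 2 and 3. With the replicate number as a block Tcf4 was called lower (-0.66 ± 0.12, adjusted p = 0.0042), which brought the called factors to 4 of 8, beside 19.6% of all genes called lower in that fit. It was also called without HML2 replicate 1 (-0.92, adjusted p = 0.0098) and with array weights (-0.84, adjusted p = 3.9e-04).

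Of the 6 Tcf4 probe sets, 5 reached a mean signal of 100, and all 5 had negative differences, from -0.66 to -0.12. None of them was called in the fit without the block. With the block the 3 with the largest differences were called, at adjusted p-values of 0.0037, 0.0083 and 0.015. Over the 23 probe sets of all factors that reached 100, 20 had negative differences, and 5 were called lower and 0 higher, beside 14.1% of all probe sets lower and 11.3% higher. With the block 10 were called lower, beside 19.1% of all probe sets in that fit. The 23 probe sets belong to the 8 tested factors and several measure the same gene, so these are not counts of separate genes. By the brightest probe set 7 of the 8 factors had negative differences, where the median over all genes tested was -0.02.

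**Figure D2:**
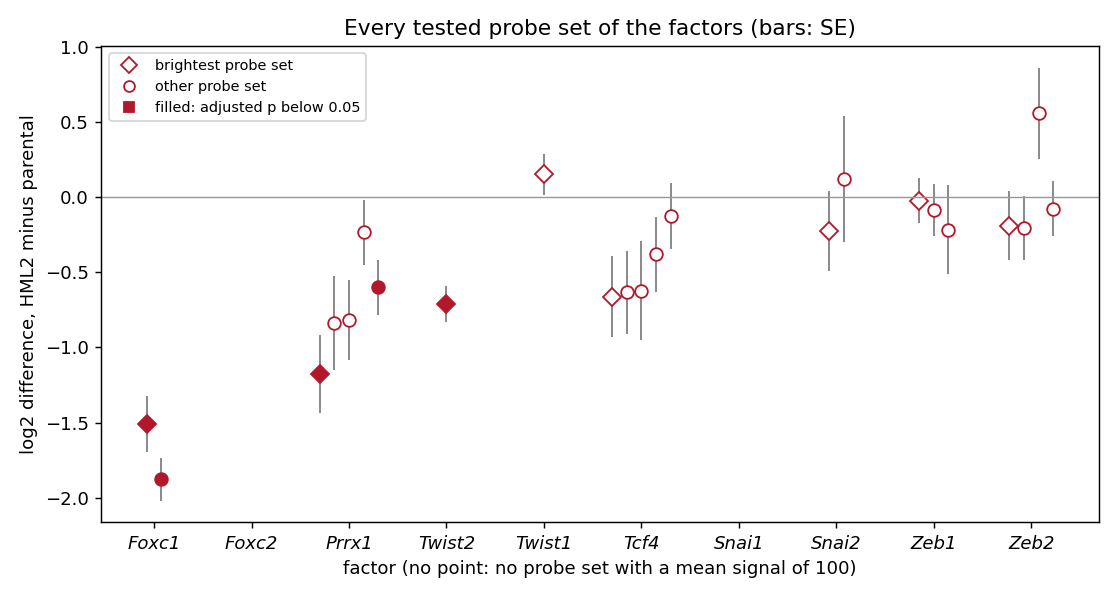
Log2 difference (HML2 minus parental) of every probe set of the factors with a mean signal of at least 100, ordered by brightness within each gene; bars are standard errors, diamonds the brightest probe set, and filled symbols those with an adjusted p below 0.05. Both Foxc1 probe sets lie below -1.5, the 5 Prrx1 probe sets spread from -1.17 to -0.23, and 1 Zeb2 probe set lies at 0.56.

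Neither Snail gene was called in the unweighted fit of all arrays. Snai2 (Slug) is a zinc finger repressor expressed in basal mammary cells. Its brightest probe set read 10736, 5004 and 5300.1 in HML2 cells, against 6464, 8134 and 8675 in parental cells. HML2 replicate 1 was the highest of the 6 arrays and the other HML2 arrays were the lowest. The log2 difference was -0.22 ± 0.27 (SE; limma adjusted p = 0.58, 95% interval -0.84 to 0.39). Without HML2 replicate 1 it was -0.58 and called (adjusted p = 0.0090), and with array weights -0.62 and called (adjusted p = 0.0013). The name of this probe set marks probes that may also match other sequences. A second Snai2 probe set read 2674, 652 and 1086 in HML2 and 1060.5, 1479.95 and 941 in parental cells, a log2 difference of 0.12 ± 0.42 (adjusted p = 0.86). Both probe sets had HML2 replicate 1 highest, and they differed in sign.

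Snai1 fell just short of the signal filter, with a mean of 91.7 over the 6 arrays. It read 57.5, 103 and 55.0 in HML2 and 103, 139.6 and 91.8 in parental cells, above the bacterial controls on all arrays but with overlapping groups. Without a signal filter its log2 difference was -0.42 ± 0.24 (SE; limma adjusted p = 0.34, 95% interval -0.96 to 0.13), and 6.82% of the 18193 genes in that fit were called lower. Its protein is known to be controlled largely by phosphorylation and degradation, which messenger RNA does not show. Per array, Snai2 minus Snai1 differed by 0.19 between HML2 and parental cells with overlapping values (exact permutation p = 0.8).

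The Zeb genes encode large zinc finger and homeobox repressors of Cdh1. Zeb1 read 2685, 2018 and 1956 on the HML2 arrays and 2342, 2169.7 and 2191 on the parental arrays. Its log2 difference was -0.02 ± 0.15 (SE; limma adjusted p = 0.92), with a 95% interval of -0.35 to 0.31, so that a change as large as that of Twist2 or Foxc1 lay outside it. Under median centring, and without HML2 replicate 2, HML2 replicate 3 or parental replicate 1, the sign of this small value was positive. The other 2 Zeb1 probe sets with a mean of at least 100 had differences of -0.09 and -0.22, neither called.

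Zeb2 read 2969, 1785 and 1548 in HML2 cells, against 2216, 2067 and 2688 in parental cells. HML2 replicate 1 was again the highest array. The log2 difference was -0.19 ± 0.23 (SE; limma adjusted p = 0.58, 95% interval -0.72 to 0.34), and -0.46 without HML2 replicate 1, where it was called (adjusted p = 0.027). With array weights it was -0.61 and called (adjusted p = 0.0018). One of the other 3 tested Zeb2 probe sets went the other way, with 881, 338 and 614 in HML2 and 348, 305 and 482 in parental cells (0.56 ± 0.30, adjusted p = 0.21), and the mean over all tested Zeb2 probe sets was 0.021. Per array, Zeb2 minus Zeb1 differed by -0.17 with overlapping values (exact permutation p = 0.4).

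HML2 replicate 1 stood above the other HML2 arrays for 6 of the 8 factors tested. On the log2 scale it exceeded the mean of HML2 replicates 2 and 3 by 1.05 for Snai2, 1.03 for Prrx1, 0.82 for Zeb2, 0.77 for Tcf4, 0.42 for Zeb1 and 0.31 for Twist1. For Twist2 it was lower by that measure at -0.12, and for Foxc1 at -0.52. The median was 0.60 over the 8 factors and 0.01 over all genes tested. The corresponding excess of parental replicate 1 was 0.67 for Tcf4 and between -0.38 and 0.21 for the other 7. It was positive for 75% of the factors, the same share as for HML2 replicate 1, but with a median of 0.10. Over all genes tested the excess was positive for 51.4% with HML2 replicate 1 and for 53.0% with parental replicate 1. Without HML2 replicate 1, 6 of the 8 factors were called lower, namely Foxc1, Prrx1, Twist2, Tcf4, Snai2 and Zeb2, beside 19.7% of all genes in that fit. With array weights, which count an array less where it departs from its group, the same 6 were called lower, beside 28.1% of all genes. Without parental replicate 3, Foxc1 and Twist2 were called, beside 8.49% of all genes. The labels do not say how the culture of HML2 replicate 1 differed from the others.

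**Figure D3:**
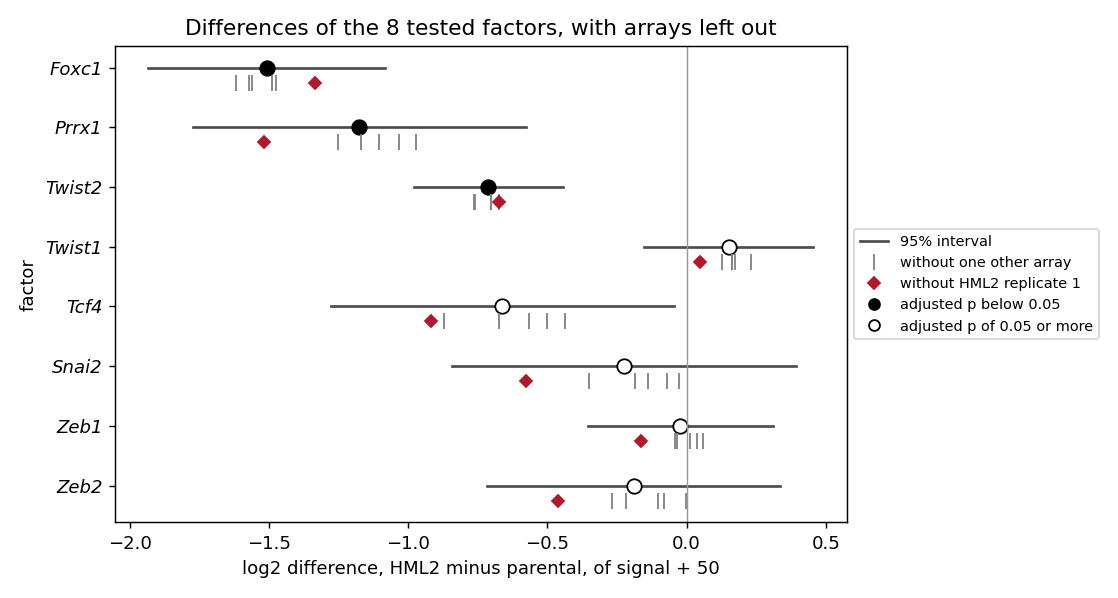
Log2 difference of the 8 tested factors, HML2 minus parental, with its 95% interval (horizontal bars), and below each the value with 1 array left out; red diamonds leave out HML2 replicate 1. Foxc1, Prrx1 and Twist2 lie below 0 under every omission, and the diamonds lie left of all other omissions for Prrx1, Twist1, Tcf4, Snai2, Zeb1 and Zeb2.

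Prrx1 and Twist2 share chromosome 1, and Snai2 lies on chromosome 16. Of the 519 other tested genes on chromosome 1, 34.5% were called lower and 4.05% higher, with a median log2 difference of -0.31, whereas 13.7% of genes elsewhere were called lower. Of the 301 other tested genes on chromosome 16, 41.2% were called lower, with a median of -0.42. Foxc1 lies on chromosome 13, where 12.9% of 340 other genes were called lower and the median was 0.01. Twist1 lies on chromosome 12, where 8.16% of 331 other genes were called lower, 24.5% were called higher and the median was 0.15. The median of chromosome 1 was smaller in size than the differences of Prrx1 and Twist2, a gap that naming called factors favours. The median of chromosome 16 was larger in size than the difference of Snai2, -0.22. The median of chromosome 12 equalled the difference of Twist1 to the second decimal. The part of the chromosomes in these differences was not tested.

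The genes whose profiles were nearest to the called factors were found by the root mean square distance between gene-centred log2 values over the 6 arrays. Nearest to Foxc1 were Ssbp3 at 0.056, Ift27 at 0.075 and Adcy7 at 0.082, beside a median distance of 0.79 over all genes. Nearest to Twist2 were Pigyl at 0.028, Copa at 0.037 and Slc6a6 at 0.044, where the median was 0.42. Nearest to Prrx1 were St3gal1 at 0.0997, Mapk13 at 0.10 and Nipsnap2 at 0.11, with a median of 0.72. St3gal1, for example, had 374 ± 183 in HML2 and 957 ± 142 in parental cells (SD, n = 3 each), with the same high HML2 array as Prrx1. All 9 were called lower, although Mapk13 and Nipsnap2 lost the call when some single arrays were left out. The calls and the shared high array follow from choosing genes by likeness to a called factor, so neither is a separate result.

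Related regulators were described next, from lists of partners and relatives of the factors. Of 23 genes for E proteins, Id inhibitors and other EMT regulators, 21 were on the array, 10 were tested, 2 were called lower and 0 higher, with a median log2 difference of -0.42. Over all genes tested 14.9% were called lower and 12.3% higher, so this count is near the background. Prrx2, the paralog of Prrx1, read 38.7, 32.8 and 55.6 in HML2 and 263, 794 and 847 in parental cells. It passed the signal filter through its parental level alone, with HML2 signals at or near the range of the bacterial controls, so its call, 1 of the 2 in the list, is not read as a result. Klf4, a factor that activates Cdh1, read 1164, 774 and 856 in HML2 and 1843, 2318 and 2935 in parental cells (-1.29 ± 0.21, SE; limma adjusted p = 0.0029).

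Among the dimer partners of Twist, Tcf3 had a difference of -0.38 (adjusted p = 0.052) and Tcf12 of -0.04 (adjusted p = 0.81). The Id proteins bind E proteins and keep them from DNA. Id2 read 876, 1560.5 and 2717 in HML2 and 2027, 5920.1 and 8042 in parental cells (-1.53, adjusted p = 0.060), with overlapping groups. Id1 and Id3 had differences of -0.64 and -0.45 and also overlapped. Parental replicate 1 was the lowest parental array for all 3 Id genes. With the replicate number as a block 4 members of the list were called lower, beside 19.6% of all genes in that fit, and without parental replicate 1 there were 5, beside 10.1%.

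Corepressors and chromatin enzymes that the factors recruit had 3 genes called higher and 0 lower among 19 tested of 20 on the array, with a median of 0.08. That is near the 12.3% of all genes called higher. The higher genes were the Groucho-type corepressor gene Tle1 (0.91 ± 0.12, SE; limma adjusted p = 0.0015) and the methyltransferase genes Prmt5, whose protein acts on arginine (0.63 ± 0.15, adjusted p = 0.017), and Kmt5a, whose protein acts on histone H4 (0.43 ± 0.11, adjusted p = 0.024). Tle1 read 1245, 1288 and 1191 in HML2 and 672, 649 and 598 in parental cells. Prmt5 and Kmt5a lost the call without any one of HML2 replicate 2, HML2 replicate 3, parental replicate 1 or parental replicate 3, and Kmt5a also when its probe sets were averaged (0.33, adjusted p = 0.083). With the replicate block 5 members were called higher and 3 lower, beside 17.8% and 19.6% of all genes in that fit.

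Enzymes that modify the factors or mark them for degradation had 1 gene higher and 4 lower among 17 tested of 19 on the array, with a median of -0.04. Over all genes 12.3% were called higher and 14.9% lower. Usp27x, a deubiquitinase known to stabilise Snai1 protein, read 296, 288 and 310.3 in HML2 and 107, 128 and 100.6 in parental cells (1.11 ± 0.16, SE; limma adjusted p = 0.0019). Gsk3b, the kinase that marks Snai1 for degradation, had 1860.2 ± 166 in HML2 and 3010.2 ± 122 in parental cells (SD, n = 3 each; log2 difference -0.68 ± 0.12, adjusted p = 0.0042). All HML2 arrays lay above all parental arrays for 2 tested genes of the list, Usp27x among them, beside 20.6% of all genes. They lay below for 4, namely Gsk3b, Ctdsp1, Ctdsp2 and Fbxo45, beside 23.8% of all genes. The phosphatase genes Ctdsp1 (-0.76 ± 0.16, adjusted p = 0.0096) and Ctdsp2 (-0.72 ± 0.14, adjusted p = 0.0060) and the ubiquitin ligase gene Fbxo45 (-0.65 ± 0.14, adjusted p = 0.0099) were also lower. Averaged over all their tested probe sets, Ctdsp2 had a difference of 0.15 and Fbxo45 of -0.30, neither called, and Fbxo45 lost its call without parental replicate 3. With the replicate block 3 members were called higher, beside 17.8% of all genes.

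Epithelial genes, several of them known targets of repression by these factors, were mostly below the signal filter. Of 26 on the array 8 were tested, with 3 called higher and 1 lower and a median of -0.00142. Over all genes 12.3% were called higher and 14.9% lower. Cdh1 itself read 3.76, 9.32 and 45.1 in HML2 and 32.2, 31.5 and 5.04 in parental cells, at or near the bacterial controls in both groups. Krt8, a keratin gene of luminal cells, had 4175 ± 650 in HML2 and 1095 ± 60.3 in parental cells (SD, n = 3 each), a log2 difference of 1.87 ± 0.14 (limma adjusted p = 8.1e-05). St14, a membrane protease gene, read 1646, 419.9 and 486 in HML2 and 189, 87.5 and 67.6 in parental cells (2.26 ± 0.48, adjusted p = 0.0094). The plakophilin genes, which encode desmosome plaque proteins, moved in opposite directions. Pkp2 had a difference of -0.97 ± 0.21 (adjusted p = 0.011) and Pkp3 of 0.71 ± 0.23 (adjusted p = 0.049), but Pkp3 stayed called only when the array left out was parental replicate 3, and not after omission of another.

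Mesenchymal genes had 6 members called lower and 2 higher among 12 tested of 24 on the array, with a median of -1.14. Over all genes 14.9% were called lower and 12.3% higher, with a median of -0.02. Those called lower with the largest changes were the collagen gene Col3a1 (-5.18), the smooth muscle actin gene Acta2 (-4.88), Sparc (-2.12) and S100a4 (-1.98), with adjusted p-values of 1.4e-05 to 7.4e-04 (limma). Col3a1 read 659, 785 and 363 in HML2 and 25093, 22244 and 20547 in parental cells. The intermediate filament gene Vim, the common marker of mesenchymal cells, read 39084, 41452 and 36631 in HML2 and 41765, 49069.8 and 39839.8 in parental cells (-0.15, adjusted p = 0.27). Its groups overlapped near the top of the signal range. The N-cadherin gene Cdh2 averaged 4.12 in HML2 and 4.76 in parental cells, within the range of the bacterial controls. The fibronectin gene Fn1 averaged 27.2 in HML2, within that range, and 56.7 in parental cells, above it, with overlapping groups. Neither of these 2 usual mesenchymal markers passed the signal filter. Mmp3 (1.34) and the integrin gene Itgb1 (0.44) were higher, and both lost the call under several alternatives, among them leaving out parental replicate 2 or parental replicate 3.

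Upstream ligands, receptors and signal factors of pathways known to act on the EMT factors had 4 members higher and 8 lower. Of 29 on the array 22 were tested, with a median of -0.35. Over all genes 12.3% were called higher and 14.9% lower. One of the 4, Tgfb1, had 163 in HML2 and 58.0 in parental cells and passed the signal filter through its HML2 level alone. Tgfb2, a TGF-beta ligand gene, read 142, 214 and 179 in HML2 and 795, 707 and 730.1 in parental cells (-1.81 ± 0.17, SE; limma adjusted p = 2.3e-04). Egfr, the EGF receptor gene, had a difference of -1.23 ± 0.17 (adjusted p = 0.0016), and -0.61 averaged over all its tested probe sets. The hepatocyte growth factor receptor gene Met had 4771 ± 315 in HML2 and 1648 ± 131 in parental cells (SD, n = 3 each), a difference of 1.51 ± 0.12 (adjusted p = 1.0e-04). The Notch ligand gene Jag1 had a difference of 1.09 ± 0.31 (adjusted p = 0.032), of 0.69 without HML2 replicate 1, and no call without any one of the parental arrays, with averaged probe sets (0.82, adjusted p = 0.070) or without the signal filter (adjusted p = 0.059). Without parental replicate 3 the list had 1 member called higher and 2 lower, beside 6.3% and 8.49% of all genes in that fit.

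**Figure D4:**
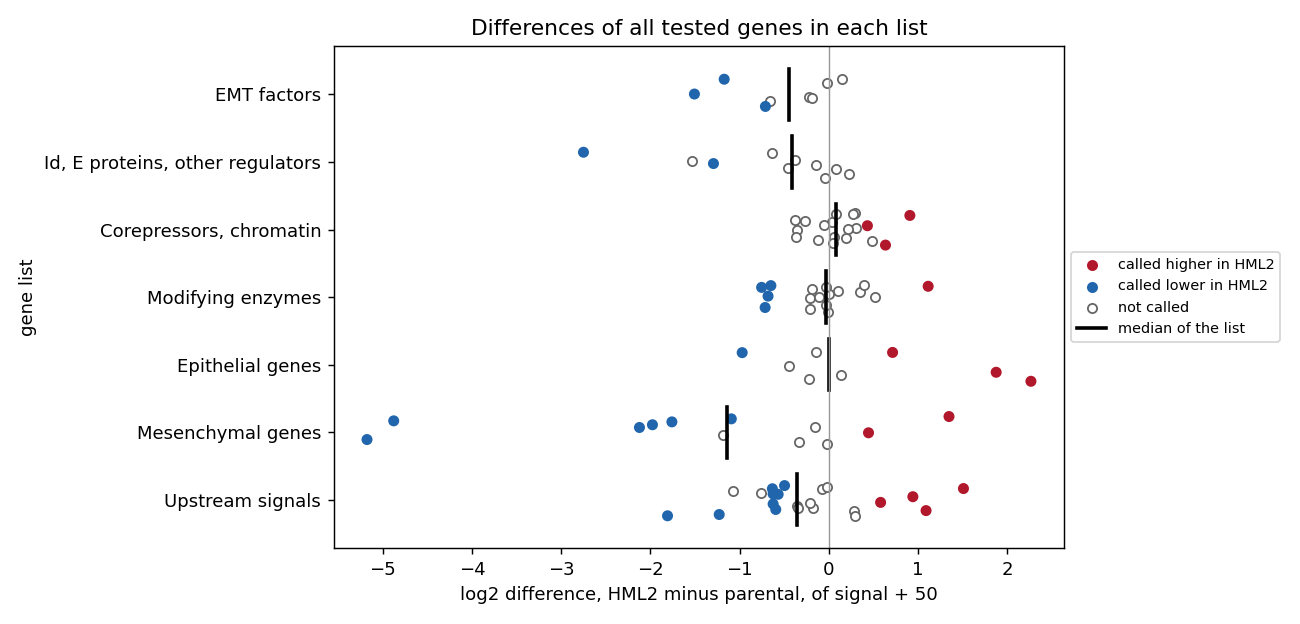
Log2 difference, HML2 minus parental, of each tested gene of the EMT factors and of 6 related gene lists, 1 row per list with a random vertical spread; red and blue points were called higher and lower in HML2, open points were not called, and black lines are list medians. The mesenchymal list has the lowest median, -1.14, beside -0.44 for the EMT factors.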

How the data were processed

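Total RNA (15 ug per culture, per the labels' protocols) from 3 HML2 and 3 parental cultures was hybridised to 1 array each. The deposited values are linear intensities, 1 per probe set on each array, from MAS5 according to the submitters' processing notes. The sources used here do not state its version or settings. The authors' values have a common trimmed mean on all arrays, which removes differences in total messenger RNA, and no detection calls were used here. Of 45101 probe sets, 64 were controls. In the array annotation of 2016, 34945 probe sets had a single symbol, 932 had several and 9160 had none. RefSeq's gene table of GRCm38.p6, used to update symbols, held 34741 of the first. No build is named for the array values, so coordinates are given for RefSeq promoter windows only. These matched 6 of the 10 factors.

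Signals were converted to log2(signal + 50), which understates changes of dim genes. Probe sets with a mean of at least 100 over the 6 arrays were kept and the brightest represented each gene. The comparison of groups used lmFit and eBayes of limma 3.58.1 (R 4.3.3), with an intensity trend and no covariates, and Benjamini-Hochberg adjustment over all genes tested. The step was tested on simulated data with known differences. The number of arrays limits the precision. Contrasts of paralogs and control ratios used exact two-sided permutation tests (scipy 1.17.1). Arrays of the same replicate number had correlations of 0.45, 0.34 and 0.24 between their deviations from the group means, above the bound of 0.1. The number was therefore used as a block in an alternative fit, while the main fit and the permutation tests did not pair the arrays. This use of the number comes from the data, since the labels do not say what the number stands for. HML2 replicate 3 and parental replicate 2 also reached 0.24.

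The factors and the 6 lists were chosen with earlier results of these data known, and no test over a list was made. Named were all factors, Cdh1, Cdh2, Vim and Fn1, up to 4 called genes per list with the largest differences (filled to 2 by brightness), the 3 genes nearest in profile to each called factor, and the brightest cell type marker. Tcf3, Tcf12, Id1, Id2, Id3, Fbxo45, Mmp3, Itgb1, Tgfb1 and the markers within the control range or at 100 were named after their values were seen.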

Additional observations from a re-analysis of the deposited data

How the results depend on the processing

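Foxc1 and Twist2 kept their direction and call under all alternatives run, and Prrx1 under all but 1 omission (-1.17, adjusted p = 0.051, without parental replicate 3). Leaving out 1 array at a time gave 590 to 1577 higher and 795 to 1845 lower genes and 2 to 6 lower factors. It gave differences of -1.62 to -1.33 for Foxc1, -1.52 to -0.97 for Prrx1, -0.92 to -0.44 for Tcf4, -0.58 to -0.029 for Snai2, -0.46 to -0.0036 for Zeb2 and -0.16 to 0.059 for Zeb1, and contrasts of -0.24 to 0.56 for Snai2 minus Snai1. With array weights there were 2422 genes higher, 2631 lower and 6 lower factors, adding Snai2 (-0.62), Zeb2 (-0.61) and Tcf4 (-0.84). The replicate block added Tcf4 alone (-0.66) and changed no other call among the factors. Averaging all probe sets turned the sign of Zeb2 (0.021) and of Zeb2 minus Zeb1 (0.13), and median centring that of Zeb1 (0.039). The cause of these changes was not tested. Median centring gave 1367 higher and 1174 lower genes, against 1155 and 1395, and moved the median of all genes to 0.04. Without a signal filter 923 genes were higher and 1241 lower, with more genes to adjust over.

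Counts in the related lists moved as follows. Leaving out 1 array gave 2 to 5 lower among E proteins and other regulators; 1 to 4 higher and 0 to 1 lower among corepressors; 1 to 2 higher among modifying enzymes; 0 to 2 higher mesenchymal genes; and 1 to 4 higher and 2 to 10 lower upstream genes. Array weights gave 5 lower regulators, 7 higher and 3 lower corepressors, 3 higher modifying enzymes, 2 lower epithelial and 14 lower upstream genes. The replicate block gave 4 lower regulators, 5 higher and 3 lower corepressors and 3 higher modifying enzymes. Averaging probe sets gave 2 lower modifying enzymes, 2 lower epithelial genes and 1 higher mesenchymal gene. There were 0 higher mesenchymal genes without an intensity trend or without a signal filter, and 1 with quantile normalization, which also gave 1 lower corepressor. Without a filter 2 upstream genes were higher and 5 lower. The paralog contrast with averaged probe sets could not be computed where Snai1 or Foxc2 had no probe set past the filter. No detection calls were used, so dim genes such as Snai1 and Foxc2 are described by their signals only.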
